A study of Mus musculus with 24 samples.

Results

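MLL3KO_MLL4fl mouse embryonic stem cells, called floxed cells here, were compared with wild-type (WT) cells in the formative state, across all 16617 genes of the deposited table. The comparison used 6 of the 24 samples of the study, 3 per group in the labels, chosen by genotype and state and not by any measured value. The study held 4 genotypes in 2 states, and RNA was measured by sequencing short tags from the 3′ ends of polyadenylated transcripts. Both groups were collected 63 h after withdrawal of LIF and 2 inhibitors (LIF2i), the medium that holds cells in the naive state. Floxed cells carry a knockout of MLL3 and a floxed allele of MLL4 by their name, and no deletion of MLL4 is named for them. WT cells were of the R1 line per the labels, which give no line name for the floxed cells, so loss of MLL3 and a difference between lines cannot be told apart. The design text says that the 3 replicates of a group were grown and prepared separately.

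MLL3 and MLL4 are the products of Kmt2c and Kmt2d, large methyltransferases that place the single methyl mark on lysine 4 of histone H3 at enhancers. They work in a complex with the demethylase Kdm6a and with Paxip1 and Ncoa6, and they recruit coactivators to enhancers that are switched on as cells change state. Formative cells lie between the naive state and the onset of gastrulation: they lower naive factors such as Esrrb and Klf4, raise Fgf5, Otx2 and Dnmt3b, and gain the capacity to form the primitive streak, neuroectoderm and germ cells.

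The table gives a mean log2 CPM (the count scaled to a fixed library total) for each group, and counts of single libraries were recovered from those means for genes of low and moderate abundance. Within a group, library a is the deepest and c the shallowest; totals were 10717398 to 13095346 counts in floxed cells and 7527501 to 13883231 in WT cells. Over 10021 genes recovered throughout, each of the 6 libraries was most correlated with one of its own group. Tests were made for 11336 genes with a median level of 3.64 CPM. The other 5281 genes, with a median level of 73.9 CPM, have deposited group means only and are given as values without a test. Differences are floxed minus WT on the log2 CPM scale with a prior count of 2, which understates changes of low genes and puts a gene with no count at 0.205 CPM in the deposited means and their sums. Rose and fell are used for a Benjamini-Hochberg adjusted p under 0.05 in limma, over all tested genes.

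The gene named as knocked out was read first. Kmt2c, the MLL3 gene (chromosome 5, 25271798 to 25498783, minus strand of GRCm38), stood at 19.9, 24 and 14.5 CPM in floxed libraries a, b and c, against a deposited mean of 37.1 CPM in WT cells. All 3 floxed values lay below the WT mean, and the difference of -0.95 was not tested because the WT counts were not recovered. In naive cells Kmt2c was lower by the test (-1.06, limma adjusted p = 0.0242). Exons of Kmt2c overlap those of Gm42585 on the other strand. Kmt2d, the MLL4 gene (chromosome 15, 98831669 to 98871204, minus strand), had 27.1, 27.5 and 21.6 CPM in floxed libraries, against 41.7, 29.8 and 35.9 CPM in WT libraries. The groups did not overlap, but the difference of -0.49 (SE 0.17) did not pass (limma adjusted p = 0.0608). Among 14 recomputed fits it passed only without WT library b (-0.61, adjusted p = 0.0315) and with size factors (adjusted p = 0.0303). Over these fits the difference ranged from -0.61 to -0.37, with adjusted p up to 0.276. Tags at the 3′ end do not test a deletion elsewhere in the gene. Of the 17 listed methyltransferases and MLL3/4 partners with values, 14 were below 0, with a median of -0.30. Of these, 0 of 3 tested genes passed, against 10.2% of all tested genes. Setd1b, the catalytic subunit of a SET1 complex, had the lowest difference of the list, with 33.0 CPM in floxed cells and 74.3 CPM in WT cells (-1.17, not tested). The partner Kdm6a stood at 47.9 CPM in floxed cells and 46.1 CPM in WT cells.

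Of the 11336 tested genes, 1153 changed (10.2%): 506 rose (4.46%) and 647 fell (5.71%). At least 2-fold differences were seen for 311 of the genes that rose and 439 of those that fell. Libraries of the groups did not overlap for 1102 of the 1153, and for 26.0% of all tested genes. The median difference over all genes was 0.006, and the median SE of a tested gene was 0.36. Of the 5281 untested genes, 107 (2.03%) stood 2-fold or more above WT and 110 (2.08%) 2-fold or more below it. The numbers of genes called ranged from 775 to 1183 over the alternatives tried.

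**Figure D1:**
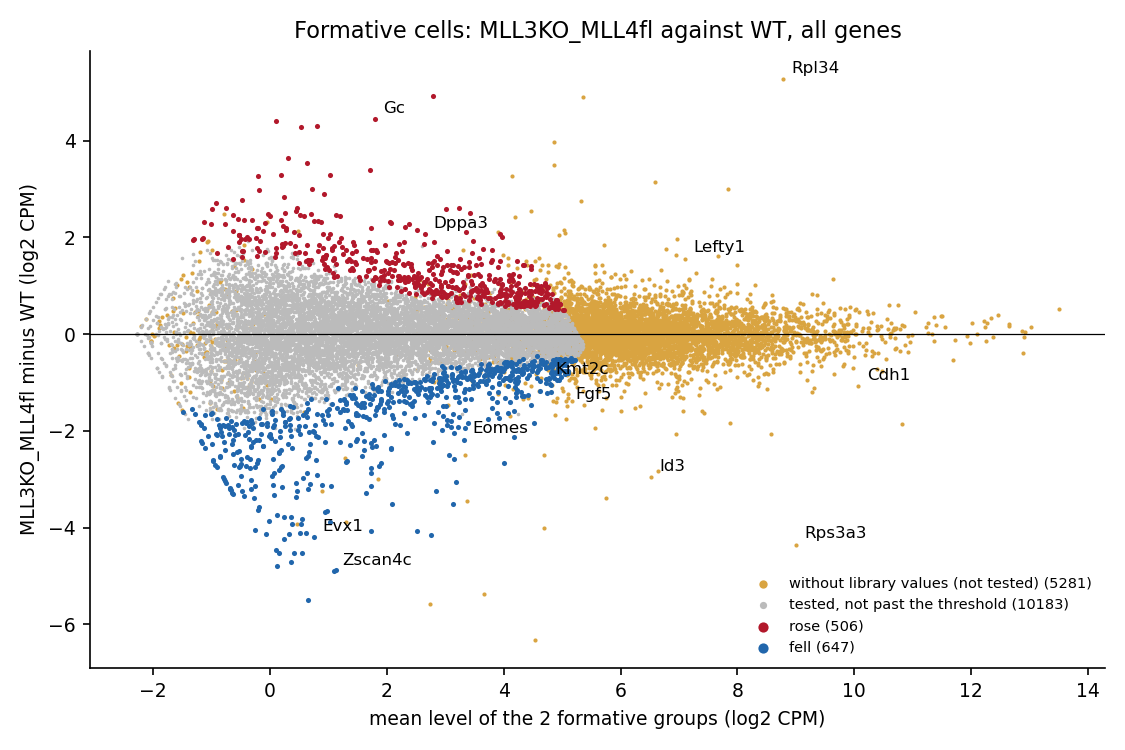
Difference between formative floxed and WT cells (log2 CPM, vertical axis) against the mean level of the 2 groups (log2 CPM, horizontal axis), 1 point per gene. Red points rose (506), blue points fell (647), grey points were tested and did not pass, and yellow points were not tested.

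The genes that rose most were of mixed function. Gc, the vitamin D binding protein of plasma, led with 13.2, 18.4 and 16.8 CPM in floxed libraries, against 0.432, 0.883 and 0.399 CPM in WT libraries (4.44, SE 0.58, limma adjusted p = 1.26e-06). The lowest floxed library was far above the highest WT library. Zfp429, a zinc finger gene on chromosome 13, had 10.5, 9.23 and 11.5 CPM in floxed libraries, against 0.576, 1.08 and 0.797 CPM in WT libraries (3.40, SE 0.39). Pnp2, a purine nucleoside phosphorylase, rose by 3.30. Myl3, a myosin light chain of heart and slow muscle, had 22.3, 14.7 and 23.0 CPM in floxed libraries, against 3.89, 2.65 and 2.92 CPM in WT libraries (2.58, SE 0.32). Nod1, a cytosolic sensor of bacterial cell walls, had 30.1, 20.1 and 26.6 CPM in floxed libraries, against 5.55, 3.53 and 3.99 CPM in WT libraries. Cmc4, a small mitochondrial protein gene on chromosome X, rose by 2.46. Madcam1, an adhesion molecule of gut vessels, rose by 2.27, Dcn, a matrix proteoglycan, by 2.21 and Tgds by 2.19. Exons of Zfp429, Pnp2, Myl3, Cmc4 and Tgds overlap those of another annotated gene, and the labels do not say whether reads were counted by strand, so their values may hold reads of the neighbour.

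ND3, a respiratory chain gene of the mitochondrial chromosome, rose by 4.30 (SE 0.77, limma adjusted p = 0.000182) at a low level, 3.28, 16.8 and 7.74 CPM in floxed libraries against 0.432, 0 and 0.266 CPM in WT libraries. Its 3′ end is identical to that of the nuclear pseudogene Gm28438, which stood at 0.638 CPM in floxed cells and 9.40 CPM in WT cells. Summed, the 2 models held 8.42 CPM in floxed cells and 9.79 CPM in WT cells, a difference of -0.22 for the pair.

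The genes that fell most were led by the 2-cell-like group, genes switched on as the genome of the 2-cell embryo becomes active and in a rare cell state of stem cell cultures. Of 17 listed 2-cell-like genes 8 had values, and all 8 were tested and fell, against a background of 5.71% of tested genes. All 8 had too few counts in formative floxed libraries to pass the count filter there. They were tested because of other libraries, WT among them, which favours falls over rises. The share that fell is therefore not a fair comparison with the background, and the sizes below describe the fall. The list median was -4.15. With genes at 0 in floxed cells set at a bound of 3 counts over the group, that median was -4.36. Zscan4c (chromosome 7, 11005745 to 11010547), a telomere-associated zinc finger gene of this state, had 0.305, 0 and 0.373 CPM in floxed libraries, against 13.3, 8.73 and 13.2 CPM in WT libraries (-4.90, SE 0.48, limma adjusted p = 4.58e-09). Tcstv3 had 0.153, 0 and 0.0933 CPM in floxed libraries, against 6.27, 6.48 and 5.85 CPM in WT libraries (-4.52, SE 0.41). Usp17lc, a deubiquitinase gene of the same state, fell by 4.47, and the differences were -4.24 for Zscan4d and -2.94 for Zscan4a. Floxed and WT libraries did not overlap for any of these 5 genes.

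The other 3 2-cell-like genes had no count in any floxed library. Usp17la stood at 3.24, 2.35 and 4.25 CPM in WT libraries and was at least 39.0-fold lower in floxed cells, Spz1 at 1.22, 2.35 and 1.20 CPM (at least 18.9-fold lower) and Zfp352 at 1.94, 0.0981 and 2.79 CPM (-2.61, limma adjusted p = 0.00757). The bounds use 3 counts over the floxed libraries together. Summed from the recovered counts, the list held 0.611, 0.169 and 1.03 CPM in floxed libraries, against 39.4, 32.9 and 39.9 CPM in WT libraries. In bulk RNA fewer cells in this state and less RNA per cell cannot be told apart. The Zscan4, Tcstv and Usp17 genes, and Zfp352, have copies with near-identical 3′ ends, so counts may be split among the copies.

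Among the other genes that fell most was Gbp2b, an interferon-inducible GTPase, with 0, 0.169 and 0 CPM in floxed libraries, against 7.71, 4.12 and 7.97 CPM in WT libraries (-4.71, SE 0.42, limma adjusted p = 8.47e-10). Clec10a, a lectin of macrophages and dendritic cells, had 0, 0 and 0.0933 CPM in floxed libraries, against 3.67, 6.18 and 5.85 CPM in WT libraries (-4.52, SE 0.40). Both were close to absent in floxed cells at this depth. Trim75 (-4.14) and Psors1c2 (-3.52) fell too. Fgf1, a growth factor that binds all FGF receptors, had 0.0764, 0.593 and 0.467 CPM in floxed libraries, against 7.27, 7.26 and 8.37 CPM in WT libraries (-3.88, SE 0.54). The interferon-stimulated list as a whole showed 0 of 12 tested genes past the threshold, against 10.2% of all tested genes, with a median of 0.01.

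Primitive streak genes were lower. Of the 11 listed genes of primitive streak and endoderm with values, all were tested, 7 fell and 0 rose (background 5.71% and 4.46%), with a median of -1.58. Foxa2 and Evx1 had too few counts in every formative floxed library to pass the count filter there. Evx1 also passed the filter in naive floxed libraries. Foxa2 was tested because of other libraries, WT among them, which favours falls over rises. For such genes the share that fell is not a fair comparison with the background. Evx1 (chromosome 6, 52313498 to 52318378), a homeobox factor of the posterior streak, had 0.0764, 0.847 and 0 CPM in floxed libraries, against 7.35, 5.79 and 8.10 CPM in WT libraries (-4.20, SE 0.50, limma adjusted p = 2.56e-07). Eomes, a T-box factor needed for mesoderm and definitive endoderm, had 5.04, 3.81 and 4.67 CPM in floxed libraries, against 25.2, 15.2 and 23.9 CPM in WT libraries (-2.18, SE 0.28, adjusted p = 1.16e-06). T (Brachyury), a T-box factor of nascent mesoderm, had 1.83, 2.29 and 2.43 CPM in floxed libraries, against 7.27, 6.18 and 8.90 CPM in WT libraries (-1.68, SE 0.35, adjusted p = 0.00129). For each of these 3 genes every floxed library lay below every WT library. Exons of Evx1 overlap those of its antisense partner Evx1os, and those of Eomes an antisense model.

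Wnt3, the signal that starts streak formation, had 9.16, 10.8 and 10.8 CPM in floxed libraries, against 40.5, 20.5 and 35.3 CPM in WT libraries (-1.58, SE 0.23, limma adjusted p = 7.2e-06). Sp5, a direct target of Wnt signalling, had 1.76, 1.1 and 1.12 CPM in floxed libraries, against 7.56, 6.57 and 7.97 CPM in WT libraries (-2.33, SE 0.32). Mesp2, a bHLH factor of early mesoderm, fell by 1.57 (adjusted p = 0.0167). Foxa2, a forkhead factor of endoderm, had 0.0764, 0 and 0.373 CPM in floxed libraries, against 0.792, 1.77 and 1.06 CPM in WT libraries (-2.08, adjusted p = 0.00563). The Foxa2 call was lost without floxed library b (-1.75, adjusted p = 0.0741) and with limma-voom (adjusted p = 0.0825). The 4 listed genes that did not pass were Mixl1 (-0.29), Tbx6 (-0.36), Fgf17 (-0.03) and Gsc (0.03), all at low levels in both groups. Summed from the recovered counts, the list held 25.4, 24.4 and 27.9 CPM in floxed libraries, against 100, 69 and 93.3 CPM in WT libraries.

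**Figure D2:**
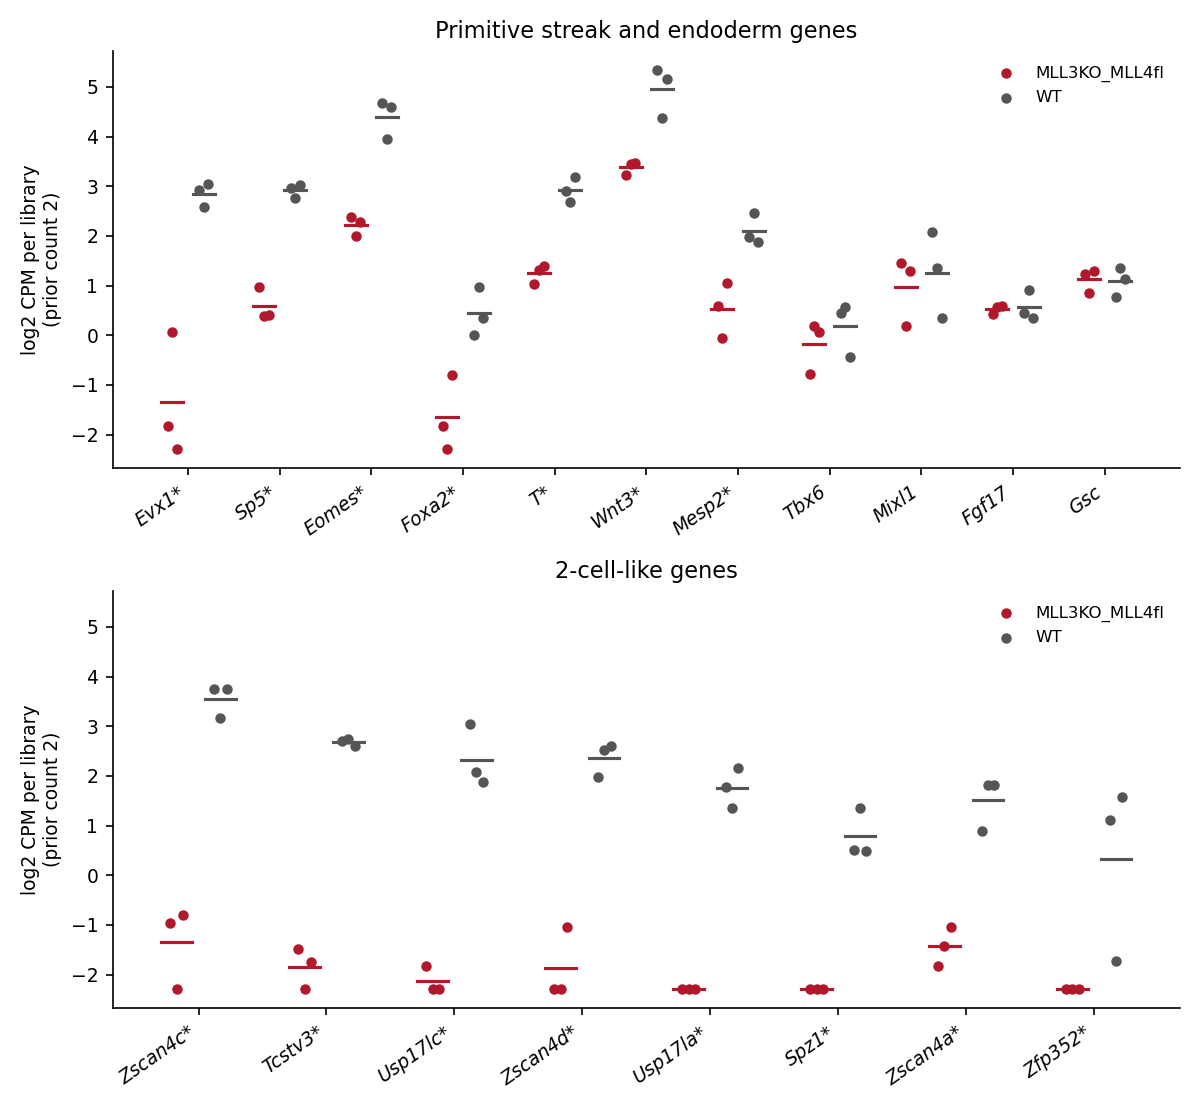
Level of each 3′ tag library (log2 CPM with a prior count of 2, vertical axis) for primitive streak and endoderm genes (top) and 2-cell-like genes (bottom), ordered by difference; red points are the 3 floxed and grey points the 3 WT formative libraries, bars are group means and a star marks an adjusted p under 0.05. All 8 2-cell-like genes and 7 of 11 primitive streak genes carry a star, and genes with no count in a floxed library lie on the lowest line.

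Promoters of 3 of the streak genes that fell are shown because the genes fell together and one encodes a Wnt signal and another a Wnt target. They run from 250 bases before to 50 bases after the start site, from RefSeq on GRCm38.p6. Capitals mark each match to CTTTGAT or CTTTGTT, the letters bound by TCF/LEF factors, on either strand (as ATCAAAG or AACAAAG on the other). These letters overlap those bound by SOX factors. Sp5 lies at chr2:70474673-70474972, Wnt3 at chr11:103773925-103774224 and Evx1 at chr6:52313248-52313547, all on the plus strand.
Sp5: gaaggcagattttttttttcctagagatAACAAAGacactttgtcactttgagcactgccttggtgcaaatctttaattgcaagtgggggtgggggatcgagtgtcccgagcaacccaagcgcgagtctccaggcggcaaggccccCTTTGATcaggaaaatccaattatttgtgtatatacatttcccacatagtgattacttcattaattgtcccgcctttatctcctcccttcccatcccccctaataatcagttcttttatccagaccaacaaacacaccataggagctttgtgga
Wnt3: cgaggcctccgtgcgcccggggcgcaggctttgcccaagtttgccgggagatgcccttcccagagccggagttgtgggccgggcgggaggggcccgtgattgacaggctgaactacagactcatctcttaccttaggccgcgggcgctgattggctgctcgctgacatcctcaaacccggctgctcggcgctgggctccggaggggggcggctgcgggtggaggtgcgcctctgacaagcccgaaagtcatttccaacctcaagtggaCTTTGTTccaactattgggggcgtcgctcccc
Evx1: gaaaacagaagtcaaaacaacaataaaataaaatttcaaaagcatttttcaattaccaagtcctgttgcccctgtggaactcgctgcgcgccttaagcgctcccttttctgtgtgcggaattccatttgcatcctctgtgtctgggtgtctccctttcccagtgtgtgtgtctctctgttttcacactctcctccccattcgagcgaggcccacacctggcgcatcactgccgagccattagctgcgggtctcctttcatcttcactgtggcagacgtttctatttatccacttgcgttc
The Sp5 promoter held 2 matches, the Wnt3 promoter 1 and the Evx1 promoter 0. The promoter of Eomes, which also fell, is not printed and held 0. Of the 9 streak genes with a promoter in the RefSeq table, 3 had a match in at least 1 promoter, as did 10.60% of the 27025 genes of that table; counted by promoter, 9.33% of 32851 held one. The matches describe the letters only.

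Of 17 tested genes of the Wnt list 4 fell and 0 rose (background 5.71% fell and 4.46% rose), with a median of -0.27, and Sp5 and Wnt3 above were 2 of the 4. Axin2, a feedback inhibitor and target of Wnt signalling, had 4.66, 4.83 and 2.80 CPM in floxed libraries, against 12.6, 10.0 and 15.5 CPM in WT libraries (-1.60, SE 0.31, limma adjusted p = 0.000547). Lef1, a nuclear effector of the pathway, had 8.78, 6.27 and 11.3 CPM in floxed libraries, against 24.3, 17.1 and 25.0 CPM in WT libraries (-1.33, SE 0.22, adjusted p = 7.48e-05). Neither gene's groups overlapped. Wnt8a, another signal of the streak, was not tested and had 0.764, 1.1 and 1.4 CPM in floxed libraries, against a WT mean of 10.2 CPM (-3.00).

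Genes of the formative state itself were lower more often than higher. Of the 17 listed formative genes, 15 had a difference below 0, with a median of -0.72; 2 of the 5 tested fell and 0 rose (background 5.71% fell and 4.46% rose). Foxd3, a forkhead factor that opens enhancers in this state, had 17.5, 20.3 and 17.4 CPM in floxed libraries, against 44.2, 39.7 and 43.4 CPM in WT libraries (-1.20, SE 0.20, limma adjusted p = 9.46e-05), and Lef1 was the other. Fgf5, the growth factor that marks formative cells, had 21.2, 20.4 and 18.8 CPM in floxed libraries, against a deposited WT mean of 56.5 CPM (-1.48, not tested). Untested values were also lower for Sall2 (-1.32), the epithelial factor Grhl2 (-1.14) and the kinase gene Pim2 (-1.04, with near-identical copies elsewhere). Otx2, a homeobox factor of this state, stood at 91.8 CPM in floxed cells and 163 CPM in WT cells, and the DNA methyltransferase gene Dnmt3b at 1041 CPM in floxed cells and 1722 CPM in WT cells. Fgf8 (-0.44, adjusted p = 0.126) and Zic2 (-0.01, adjusted p = 0.987) did not pass.

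Among the 18 naive genes 1 of 11 tested rose and 0 fell (background 4.46% rose and 5.71% fell), with a median of 0.13. That gene, Dppa3, a maternal protector of DNA methylation, had 12.7, 13.1 and 12.1 CPM in floxed libraries, against 2.38, 4.32 and 2.26 CPM in WT libraries (2.07, SE 0.28, limma adjusted p = 2.23e-06), with no overlap. Esrrb had 34 CPM in floxed cells and 24.7 CPM in WT cells (0.46, adjusted p = 0.157), and Nanog 176 CPM in floxed cells and 121 CPM in WT cells, untested. Of the 12 shared pluripotency genes 5 were above 0 and 7 below, with a median of -0.21, and 0 of 1 tested passed (10.2% of all tested genes did). The lowest were the chromatin factors Dppa4 and Dppa2, not tested, at 234 CPM in floxed and 472 CPM in WT cells (-1.01) and at 41.8 CPM in floxed and 87.3 CPM in WT cells (-1.06). The LIF and STAT3 list had 1 of 8 tested genes past the threshold, against 10.2% of all tested genes. It was Gadd45g, a stress and differentiation gene, with 4.12, 2.88 and 4.11 CPM in floxed libraries, against 14.5, 14.1 and 16.5 CPM in WT libraries (-1.98, SE 0.25).

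FGF and ERK response genes had a median of -0.31, and 2 of 10 tested fell (background 5.71% fell). Egr1, an immediate early gene of ERK signalling, fell by 0.87 (limma adjusted p = 0.0139), a call lost without floxed library b (adjusted p = 0.0755), WT library a (0.076) or WT library b (0.064). Spry4, a feedback inhibitor of receptor kinases, fell by 1.18 (adjusted p = 0.0292). The Spry4 call was lost without floxed library a (adjusted p = 0.117) or c (0.16), and without WT library a (0.167) or c (0.0877). In the Nodal list 0 of 4 tested genes passed, against 10.2% of all tested genes, with a median of 0.06. Lefty1, a feedback inhibitor of Nodal, had the highest difference of that list, with 236 CPM in floxed cells and 79.9 CPM in WT cells (1.56, not tested), beside 83.9 CPM in floxed cells and 129 CPM in WT cells for Nodal itself.

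Of 15 tested imprinted genes 3 fell and 0 rose (background 5.71% fell and 4.46% rose), with a median of -0.16. Magel2, a maternally silenced gene of the Prader-Willi region, had 1.07, 0.931 and 1.77 CPM in floxed libraries, against 8.36, 9.91 and 9.43 CPM in WT libraries (-2.73, SE 0.37, limma adjusted p = 2.04e-06). Dlk1, a paternally expressed growth regulator, had 10.7, 15.7 and 11.9 CPM in floxed libraries, against 34.9, 34.4 and 24.6 CPM in WT libraries (-1.28, SE 0.21), and Peg10, a retrotransposon-derived gene, fell by 1.15. These 3 genes had no overlap between groups. The maternally expressed H19 stood at 48.0 CPM in floxed cells and 134 CPM in WT cells (-1.48, not tested), and Ndn (-0.17), near Magel2, did not pass.

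In the germline and meiosis list 4 of 18 tested genes fell and 0 rose (background 5.71% fell and 4.46% rose), with a median of -0.34. Slc25a31, a testis nucleotide carrier, had 3.13, 7.03 and 3.83 CPM in floxed libraries, against 12.5, 15.7 and 20.1 CPM in WT libraries (-1.80, SE 0.26, limma adjusted p = 6.36e-06). The other 3 calls each hung on single libraries. Mov10l1, a piRNA helicase, fell by 1.13 and did not pass without floxed library b (adjusted p = 0.13) or c (0.0734) or WT library a (0.0991) or c (0.111). Tdrd1, a piRNA scaffold, fell by 0.91 and did not pass without floxed library b (adjusted p = 0.186) or c (0.0668) or WT library a (0.0837) or b (0.139). Taf7l, a testis TFIID subunit, fell by 0.95 and did not pass without floxed library a (adjusted p = 0.0889) or b (0.25) or WT library a (0.295) or b (0.0627). Among untested members the recombinase gene Dmc1 was higher (1.32) and the ribosomal protein retrogene Rpl10l lower (-1.03).

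Lineage lists away from the streak are read against the 10.2% of all tested genes that changed. Of 9 tested neuroectoderm genes Sox1, a factor of neural progenitors, rose: it had 14.7, 13.2 and 12.8 CPM in floxed libraries, against 5.62, 8.54 and 6.78 CPM in WT libraries (0.96, SE 0.21, limma adjusted p = 0.00215). Of 12 tested trophoblast and simple epithelium genes 2 fell. Ascl2, a bHLH factor of the placenta, had 4.96, 2.29 and 3.08 CPM in floxed libraries, against 11.6, 8.93 and 12.8 CPM in WT libraries (-1.68, SE 0.30). Plac1 fell by 1.88 and did not pass without floxed library a (adjusted p = 0.0867) or c (0.0875). Of 26 tested Hox genes 1 fell, Hoxb1, an early Hox gene of the posterior embryo, with 0.993, 0.593 and 0.933 CPM in floxed libraries, against 3.46, 2.94 and 2.92 CPM in WT libraries (-1.68, SE 0.40, adjusted p = 0.00414). In naive libraries of either line Hoxb1 had at most 0.151 CPM. Libraries of other groups, WT among them, let it pass the count filter, which favours falls over rises. Of 7 tested primitive endoderm genes 0 passed, with a median of -0.15.

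Stress and housekeeping lists, each with at most 3 calls among few tested genes, are also read against the 10.2% of all tested genes that changed. Ddit3, the transcription factor CHOP of the stress response, had 11, 16.9 and 16.6 CPM in floxed libraries, against 4.32, 4.12 and 4.38 CPM in WT libraries (1.72, SE 0.29, limma adjusted p = 5.99e-05); it was the 1 call among 5 tested amino acid stress genes. Its exons overlap those of Mars on the other strand. Egln3, an oxygen sensor induced by hypoxia, rose by 0.95 (adjusted p = 0.000646), the 1 call among 7 tested glycolysis and hypoxia genes. Of 4 tested p53 targets the death receptor gene Eda2r (-1.47) and the nuclease gene Aen (-0.84) fell and Sesn1 rose (1.32), while Cdkn1a, a central target, stood at 99.4 CPM in floxed cells and 110 CPM in WT cells, untested. Of 7 tested Polycomb genes Cbx2 fell by 0.53 (adjusted p = 0.0468), and did not pass when any 1 of floxed libraries a (adjusted p = 0.0658), b (0.158) or c (0.0931) or of WT libraries a (0.141) or b (0.203) was left out. Of the tested genes for DNA methylation (3), cholesterol synthesis (4), collagens, laminins and matrix (10), and cadherins and epithelial junctions (6), 0 passed. Cdh1, the epithelial cadherin, was lower without a test, 743 CPM in floxed cells and 1558 CPM in WT cells (-1.07).

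**Figure D3:**
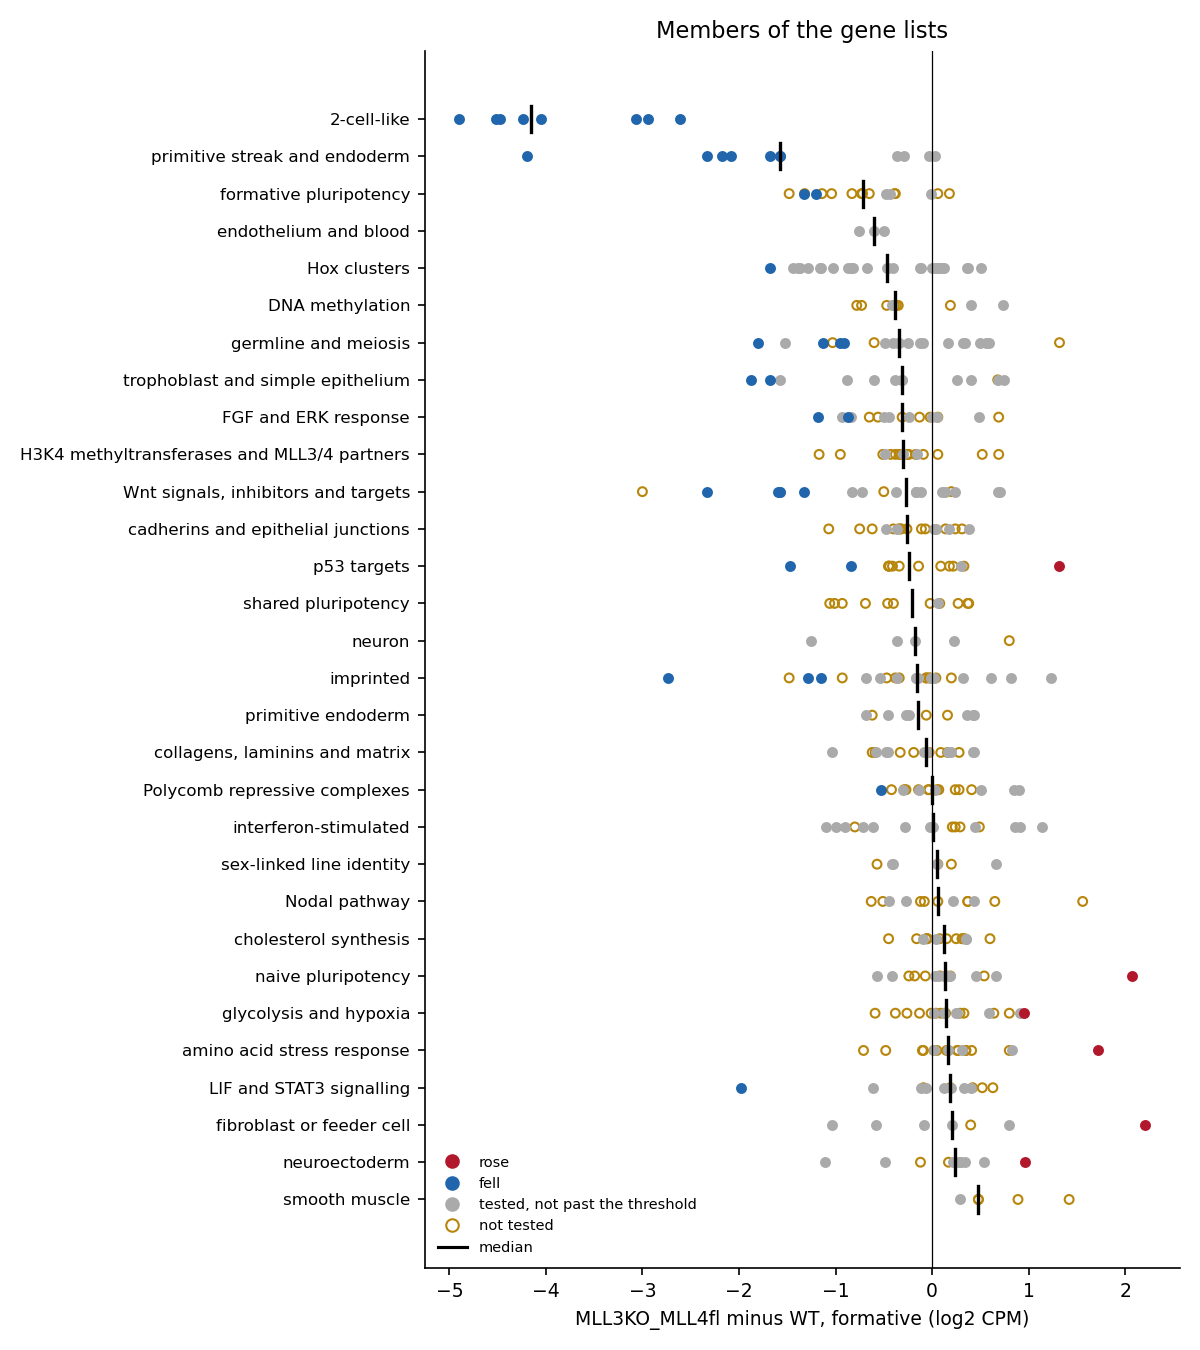
Difference between formative floxed and WT cells (log2 CPM, horizontal axis) of every member of the 30 gene lists, ordered by list median (black bar); red points rose, blue points fell, grey points were tested and did not pass, and open yellow points were not tested. The 2-cell-like list (median -4.15) and the primitive streak list (median -1.58) lie apart at the top.

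Markers of other cell types that a culture could hold gave 1 call, read against the 10.2% of all tested genes that changed. Of 6 tested fibroblast markers Dcn rose, with 12.3, 9.40 and 9.80 CPM in floxed libraries, against 1.30, 1.86 and 3.72 CPM in WT libraries, while the fibroblast collagen gene Col1a2 stood at 0.962 CPM in floxed cells and 1.98 CPM in WT cells. The 7 fibroblast markers with values summed to 30 CPM in floxed cells and 18.7 CPM in WT cells (7 of 13 listed markers). The smooth muscle markers summed to 257 CPM in floxed cells and 163 CPM in WT cells, with Tagln, an actin-binding protein, at 34.6 CPM in floxed cells and 12.9 CPM in WT cells (1.42, not tested). The 3 endothelium and blood markers with values, of 9 listed, summed to 2.69 CPM in floxed cells and 4.09 CPM in WT cells, and 0 of 3 tested genes passed. The neuron markers summed to 216 CPM in floxed cells and 148 CPM in WT cells, most of it from Stmn2, and without it to 40.2 CPM in floxed cells and 47.8 CPM in WT cells; 0 of 4 tested passed and the median was -0.18. Of 4 tested sex-linked genes 0 passed. The part of these markers in the other results was not tested.

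Among genes without a test, the 5 highest differences named were of 4 ribosomal protein genes and Acp1, and the 5 lowest of 3 predicted protein-coding genes and 2 processed pseudogenes. Rpl34, a protein of the large ribosomal subunit, stood at 2737 CPM in floxed cells and 70.2 CPM in WT cells (5.28). Rpl30, of the same subunit, stood at 225 CPM in floxed cells and 7.5 CPM in WT cells (4.91). Rps3a1, of the small subunit, stood at 116 CPM in floxed cells and 7.35 CPM in WT cells (3.98), and Rpl29 at 55.4 CPM in floxed cells and 5.69 CPM in WT cells (3.28). All 4 encode ribosomal proteins. The fifth, Acp1, an acid phosphatase, stood at 97.6 CPM in floxed cells and 8.62 CPM in WT cells (3.50). At the other end lay the predicted genes Gm21761 (-6.32), Gm7324 (-5.58) and Gm8994 (-5.37) and the processed pseudogenes Rps3a3 (-4.35) and Gm16399 (-4.00). Of these 10 genes Acp1 alone had no copy with a near-identical 3′ end.

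Sums of a gene and 1 copy are given for these genes and for Rps2 and Rpl3, chosen after their values were seen. Rps3a3, a copy of Rps3a1 with 98.0% identity over 151 bases, stood at 113 CPM in floxed cells and 2311 CPM in WT cells, and the sum of the pair was 229 CPM in floxed cells and 2318 CPM in WT cells. Rpl34-ps2, a copy of Rpl34 with 96.3% identity over 164 bases, had 0.153, 0.339 and 0 CPM in floxed libraries, against 4.97, 8.63 and 4.38 CPM in WT libraries (-4.12, SE 0.53, limma adjusted p = 1.21e-06). Rpl34 and Rpl34-ps2 together stood at 2737 CPM in floxed cells and 76.2 CPM in WT cells, a difference of 5.17 for the pair. For Rpl30 and Rpl30-ps1, identical over the aligned 3′ end, the pair difference was 4.81. It was 2.02 for Rpl29 and Gm3550, 2.56 for Rps2 and Gm6433 and 1.58 for Rpl3 and Rpl3-ps1. Of the copies summed with Rpl29, Rps2 and Rpl3, these gave the smallest pair differences. Copies of higher identity gave 2.97 for Rpl29 (Gm6344, 98.6%) and 3.09 for Rps2 (Gm5786, 99.4%). Rpl3-ps2, with the same identity to Rpl3 as Rpl3-ps1, gave 2.60. Gm7324 and Rbmxl1 together differed by -0.69, and Gm21761 and Gm20767 by -5.90. Gm8994 and Eif4a3 together differed by -0.56, with Eif4a3 alone at 698 CPM in floxed cells and 947 CPM in WT cells. With its closer copy Gm5576, of 99.5% identity over 200 bases, the Gm8994 pair differed by -4.37. Gm16399 was lower while its copy Cox6c, a subunit of cytochrome oxidase, stood at 1910 CPM in floxed cells and 1260 CPM in WT cells. Of all 76 ribosomal protein genes, 8 were at least 2-fold different, all higher, of which 6 had a near-identical copy, as did 58 of the 76. The median of the 76 was 0.32. The labels do not say how reads that match several copies were assigned.

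**Figure D4:**
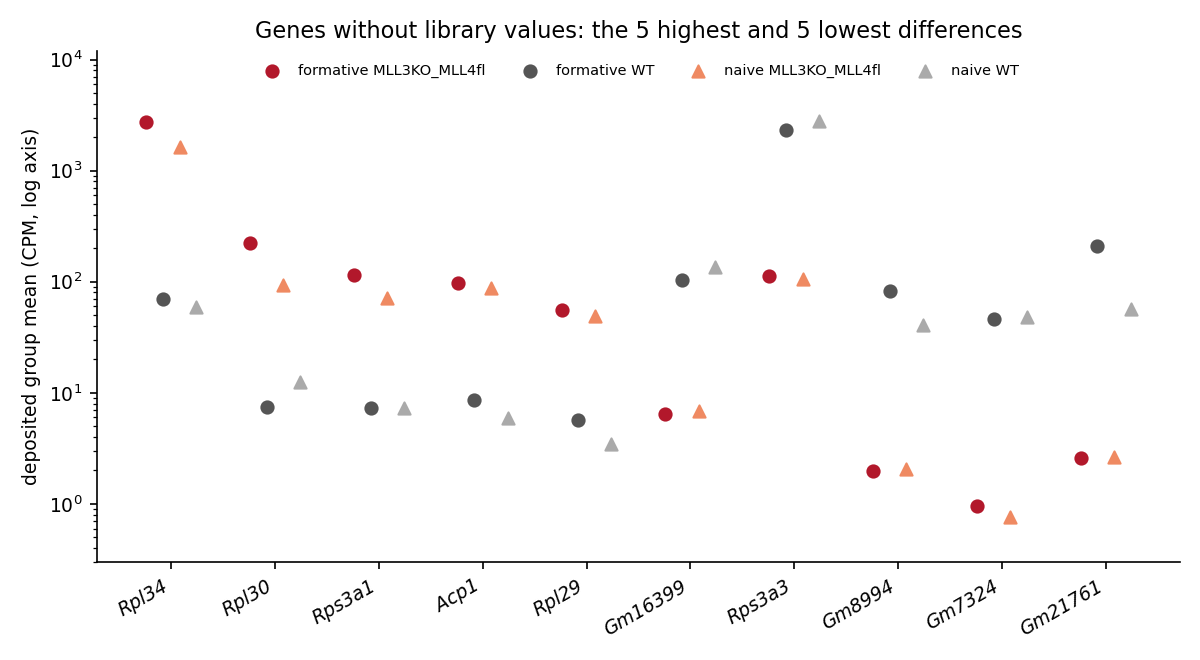
Deposited group means (CPM, log axis) of the 5 highest and 5 lowest differences among genes without a test. Circles are formative and triangles naive cells, red and orange are floxed and dark and light grey WT cells. For each of the 10 genes the naive pair differs in the same direction as the formative pair.

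The same lines were also measured in the naive state, in libraries separate from those above, with 3 floxed and 2 WT libraries in the deposited means. The naive comparison called 699 of 12544 tested genes (5.57%), 274 higher (2.18%) and 425 lower (3.39%), and 389 without naive WT library a. Of 1110 genes changed in formative cells with a naive test, 818 (73.7%) had the same sign in naive cells and 193 were called in the same direction, 73 of them higher and 120 lower. These 193 were 17.4% of the formative calls and 33.5% of the 576 naive calls tested in both states. Gc (4.08 in naive cells, limma adjusted p = 0.000323), Zfp429 (5.36) and Pnp2 (6.96) rose in both states, and Zscan4c (-3.41), Tcstv3 (-3.36) and Clec10a (-2.63) fell in both. Rpl34 (4.78), Rps3a3 (-4.72), Gm7324 (-5.98) and Acp1 (3.87) had naive differences of the same direction.

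The effect of the line, floxed minus WT, was tested for a difference between states, formative minus naive. Of 10906 tested genes 184 passed (1.69%), 93 with a higher and 91 with a lower effect in formative cells (0.853% and 0.834%). The count was 109 without formative WT library a, 117 without c, 120 without naive WT library a and 108 without b, and 34 with limma-voom. In the primitive streak list 2 of 11 tested genes passed, both lower, with a median of -1.30. Evx1 fell by 4.20 in formative cells and had 2.24, 1.92 and 2.72 CPM in naive floxed libraries against 1.26 and 1.92 CPM in naive WT libraries (0.49), a difference of effects of -4.69 (SE 0.72, limma adjusted p = 0.000261). Eomes had a naive difference of 0.94, and its effects differed by -3.11 (adjusted p = 2.95e-05). Outside the streak, effects also differed for Foxd3 (-1.41, adjusted p = 0.00916), Ascl2 (-2.02, adjusted p = 0.0073), Psors1c2 (-3.16, adjusted p = 0.0081) and Dcn (2.67, adjusted p = 0.0307). Dcn had at most 0.211 CPM in any naive library of either line. Of the streak genes above, T (-2.45, adjusted p = 0.0669) and Wnt3 (-2.05, adjusted p = 0.108) did not pass this test. Of the 7 tested 2-cell-like genes Usp17la (-3.16, adjusted p = 0.0272) and Spz1 (-2.56, adjusted p = 0.0491) passed, and the naive median of that list was -2.27. Naive WT libraries held Usp17la at 0.702 and 0.113 CPM and Spz1 at 0.14 and 0.113 CPM. A naive fall of these genes could hardly be measured at that level.

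**Figure D5:**
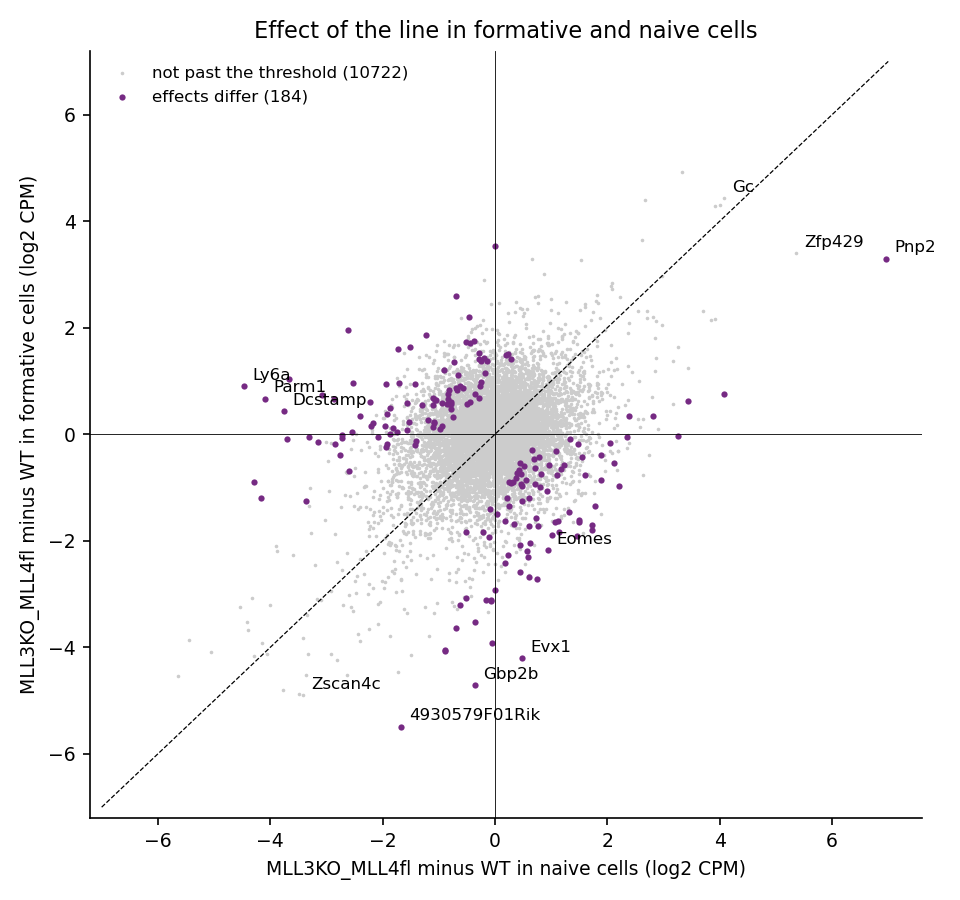
Difference between floxed and WT cells (log2 CPM) in formative cells (vertical axis) against naive cells (horizontal axis), 1 point per gene; purple points are the 184 genes whose 2 effects differed and the dashed line marks equal effects. Evx1, Gbp2b and 4930579F01Rik lie below the dashed line, Ly6a, Parm1 and Dcstamp lie at the left, and Gc, Zfp429 and Zscan4c are displaced from 0 in both states.

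The catalytic-dead (MLL3CD_MLL4CD) and double knockout (MLL3KO_MLL4KO) lines were measured in the same state, and their differences from WT use the same WT libraries, so values are set side by side only. The deposited double knockout mean averages 4 libraries, and 1 of them, of 6919314 counts, also enters the catalytic-dead mean. The double knockout values below include it. A library in both means can draw them toward each other, so a double knockout value between floxed and catalytic-dead values may partly reflect it. The size of this was not tested. Over the 2-cell-like list the medians against WT were -4.15 in floxed, -2.88 in double knockout and -0.97 in catalytic-dead cells. Over the primitive streak list they were -1.58 in floxed, -1.18 in double knockout and -1.40 in catalytic-dead cells. Over the formative list they were -0.72 in floxed, -0.30 in double knockout and -0.48 in catalytic-dead cells. Eomes stood at -2.18 in floxed, -1.87 in double knockout and -2.49 in catalytic-dead cells, and Evx1 at -4.20 in floxed, -2.73 in double knockout and -3.27 in catalytic-dead cells. Rpl34 stood at 5.28 in floxed, 3.32 in double knockout and 0.23 in catalytic-dead cells, and Rps3a3 at -4.35 in floxed, -3.39 in double knockout and 0.20 in catalytic-dead cells. Gc stood at 4.44 in floxed, 0.89 in double knockout and -1.11 in catalytic-dead cells, and Dppa3 at 2.07 in floxed, 0.46 in double knockout and 0.33 in catalytic-dead cells.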

How the data were processed

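RNA of 24 samples in 8 groups was sequenced from 3′ ends (QuantSeq 3′ FWD, single-end, per the labels). Per the submitters' processing notes, cutadapt 2.5, STAR, featureCounts of Subread 1.6.4, FastQC 0.11.8, MultiQC and DESeq2 1.34.0 were used with mm10; their settings and roles are not given in the sources used here. The authors deposited 1 table of log2 CPM averaged per group for 16617 genes. Its column for the line with the C in front of KO was read as the floxed line.

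Counts per library were recovered by solving for the whole numbers whose log2 CPM values, with a prior count of 2, average to the 9 decimals deposited. Sizes of 23 libraries came out. Naive WT holds 2. Recovered counts cover 71.3% of genes in formative floxed cells and 73.7% in formative WT cells, mostly genes of lower abundance, and recovered libraries are not tied to single samples. Library totals above are the depth.

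limma 3.58.1 (R 4.3.3) fitted all 8 groups in 1 model with lowess weights and a mean-variance trend, for genes with 10 counts at the median library size in 3 libraries. The p-values are 2-sided and were Benjamini-Hochberg adjusted over all tested genes. The recovery and fit were tested on simulated data, with a spread between replicates that was set and not taken from these libraries. There, 6.6% of the formative calls were of unchanged genes. Of tested genes changed 1.5-fold 6.5% were called, of those changed 2-fold 51.2% and of those changed 4-fold 100.0%. A gene that did not pass may therefore still have changed. Positions are from GENCODE on GRCm38, and copies are genes whose last 200 bases match with 95% identity over 100 bases (BLAST 2.17.0).

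Genes named are Kmt2c and Kmt2d, the 10 largest changes each way (5 CPM or more, no overlap, no predicted models), the 5 largest untested differences each way, and up to 4 members of each list. Members, lists, weights and copy settings were chosen with earlier results of these data known; other genes named were chosen after their values were seen. Alternatives tried were size factors, filters, prior counts, weights, groups alone, limma-voom and leaving out libraries.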

Additional observations from a re-analysis of the deposited data

Results flagged for a closer look

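For 10 genes the effect of the line, floxed minus WT, differed between formative and naive cells by the limma interaction test with Benjamini-Hochberg adjustment; these are the 5 lowest and 5 highest differences among such genes. Evx1 fell in formative cells alone, with a difference of effects of -4.69 (SE 0.72, adjusted p = 0.000261). Gbp2b differed by -4.36 (adjusted p = 0.000789), with at most 0.113 CPM in any naive library of either line. Its call was lost with a prior count of 0.5 (adjusted p = 0.148) and with limma-voom (0.205).

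The predicted gene Gm14593 differed by -3.86 (adjusted p = 0.00915), with differences of -3.92 in formative and -0.06 in naive cells. Its call was lost without formative floxed library c (adjusted p = 0.0526), without naive WT library b (0.142), with a prior count of 0.5 (0.176) and with limma-voom (0.285). The predicted gene 4930579F01Rik differed by -3.83, with -5.49 in formative and -1.67 in naive cells, and did not pass with limma-voom (adjusted p = 0.103). Pnp2 rose in both states and differed by -3.66, with 3.30 in formative and 6.96 in naive cells; it did not pass with limma-voom (adjusted p = 0.123).

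The other 5 were lower in naive floxed cells. Ly6a, a surface antigen also called Sca-1, differed by 5.37 (SE 0.58, adjusted p = 1.91e-07), with 2.61, 1.44 and 1.51 CPM in naive floxed libraries against 41.8 and 45.7 CPM in naive WT libraries. Parm1, a membrane mucin gene, differed by 4.77 (SE 0.48, adjusted p = 1e-07), with 0.652, 2.40 and 1.06 CPM in naive floxed libraries against 26.5 and 21.8 CPM in naive WT libraries. Neither passed in formative cells. D830044D21Rik differed by 4.71, Gm17210 by 4.56 and Dcstamp, a fusion protein of osteoclasts, by 4.19; D830044D21Rik (adjusted p = 0.079) and Dcstamp (0.0828) did not pass with limma-voom.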

How the results depend on the processing

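The count of 1153 formative calls ranged from 775 to 1029 when 1 library was left out, and from 780 (the compared groups alone) to 1183 (size factors) under the other alternatives. The 184 genes whose effects differed between states became 113 with a prior count of 0.5, 73 with the compared groups alone and 34 with limma-voom, and ranged from 108 to 193 when 1 library was left out. The 699 naive calls became 116 with the compared groups alone and 307 with limma-voom, and ranged from 389 to 897 when 1 library was left out. The cause of these changes was not tested. Over 49 named genes, 639 of 685 recomputed formative results stayed on their side of the threshold, 44 no longer passed and 2 newly passed; for the difference of effects 178 of 188 stayed and 10 no longer passed. No named gene changed direction. Fits without weights, of the compared groups alone or with limma-voom ended calls of Foxa2, Plac1, Mov10l1, Taf7l, Tdrd1, Spry4, Egr1 and Cbx2. The median of the 2-cell-like list was -5.74 with a prior count of 0.5 and -3.03 with 5; 88 other recomputed list medians moved by less than the spread between libraries. Size factors shifted all genes by -0.033. No paired analysis was possible because the deposited columns are group means without replicate numbers. Abundant genes lack library values in 1 or both groups, so most ribosomal, pluripotency and chromatin genes could not be tested here.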

Other observations

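Small nucleolar RNAs, which guide the modification of ribosomal RNA, were lower as a class chosen after values were seen. Of 92 tested snoRNA genes 22 fell and 0 rose (23.9% called, against 10.2% of all tested genes), with a median of -0.69 in formative and -0.62 in naive cells. Scarna9, a guide RNA of Cajal bodies, had 2.60, 1.95 and 2.43 CPM in floxed libraries, against 14.4, 11.3 and 6.38 CPM in WT libraries (-2.04, limma adjusted p = 0.00046). Most such genes lie within introns of other genes, and reads of the host cannot be told apart here.

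Zinc finger genes with a Zfp symbol were also looked at after their values were seen. Of 280 tested 21 rose and 11 fell (11.4%, against 10.2% of all tested genes). Over all tested genes 4.46% rose and 5.71% fell. On chromosome 13, which holds Zfp429, 7 of 30 rose and 2 fell (median 0.64), and on chromosome 4, 5 of 21 rose and 1 fell (median 0.26). On chromosome 17, 4 of 33 rose and 0 fell (median 0.25), and on chromosome 2, 1 of 12 rose and 0 fell (median -0.14). On chromosome 7, 1 of 78 rose and 4 fell (median 0.05). Id3 and Id1, targets of BMP signalling that block bHLH factors, were lower without a test, at 32.9 CPM in floxed and 256 CPM in WT cells for Id3 (-2.96) and at 105 CPM in floxed and 251 CPM in WT cells for Id1 (-1.25).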
